A study of Mus musculus with 48 samples.

Results

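Chromatin accessibility was described at the genes of the TNF superfamily, the ligands and receptors related to tumour necrosis factor, in CD8 T cells sorted from mouse melanomas. Members were the accessible regions (peaks) of the deposited table that overlapped, or lay within 100 kb of, a protein-coding gene whose symbol starts with Tnfrsf (receptors) or Tnfsf (ligands) or is Cd27, Cd70, Fas, Fasl, Ltb, Lta or Ltbr. A peak that overlapped several gene bodies went to the gene whose boundary was nearest the middle of the peak, and a peak outside every gene body went to the nearest gene. The rule took 172 of 53868 peaks and gave at least 1 peak to 34 of the 39 genes that it names. Ltbr, Tnfrsf4, Tnfrsf11b, Tnfsf12 and Tnfsf13 received no peak, and 2 peaks went to Tnfsfm13, the readthrough of Tnfsf12 and Tnfsf13. All 172 peaks entered every test, since no filter on low values was applied; 164 had at least 1 read in every library and 8 had no read in at least 1 library.

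ATAC-seq marks open chromatin by the places where the Tn5 transposase inserts sequencing adapters, and 48 libraries were made. The cells came from spleens of Cas9-expressing CD45.1 OT-1 mice, whose CD8 T cells have a transgenic receptor for an ovalbumin peptide. They received a lentiviral vector with an ametrine reporter and a guide RNA against Zfp219 (labelled Zfp219KO), a guide RNA against Dusp5 (labelled Dusp5KO), or the control that the labels call OTC. Reporter-positive cells were transferred into young or aged mice 1 day before inoculation with B16-OVA, a melanoma line that expresses ovalbumin, and were sorted from the tumours on day 15. The age is therefore that of the host as the labels give it, and OTC controls carry the receptor transgene, Cas9 and a guide vector as well. Tprog (progenitor exhausted) was Slamf6 positive and Tim-3 negative, Ttran (transitory, effector-like) was positive for both, Tterm (terminally exhausted) was Tim-3 positive and Slamf6 negative, and Ttad (age-associated dysfunctional) was negative for both. Each guide in aged mice had 2 libraries in each of the 4 states. In young mice each guide had 2 libraries of Tprog and 3 of Ttran and of Tterm, and the Ttad libraries used here were all aged, which gives 21 groups. Cells of several mice were pooled into each library, 5000 to 50000 per guide and state, so that p-values measure the spread between pools; a guide edits a population of cells rather than a clone. ATAC-seq does not show whether a guide cut, and no library gives a check of the edit: the single peak at Zfp219 held 95.4 to 195 normalised reads in OTC libraries and 110 to 188 in Zfp219 libraries. In bulk cells, a smaller share of cells with an open site and a less open site in each cell cannot be told apart.

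Receptors of this superfamily have cysteine-rich extracellular domains and bind trimeric ligands. Co-stimulatory members such as 4-1BB (Tnfrsf9), OX40 (Tnfrsf4), GITR (Tnfrsf18) and CD27 recruit TRAF adaptors and feed NF-kB signalling in activated T cells, while Fas and the TRAIL receptor Tnfrsf10b carry a death domain. In tumours, several of these receptors are known as surface markers of T cells that have met antigen, and their ligands sit mostly on antigen-presenting cells, although activated T cells can make some of them, including RANKL (Tnfsf11), TRAIL (Tnfsf10), Fas ligand and LIGHT (Tnfsf14).

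Aged libraries held 5638413 to 16159054 reads in peaks, and young libraries 6589023 to 29942755. Values are given as normalised reads, the read count divided by a factor of the library. The library numbers in the table's column names restart with each age, and whether both ages were handled together is not given in the sources used here; any difference in handling between the ages cannot be told apart from age. All 5 genes of a CD8 T cell list had peaks on their bodies (Cd3e, Cd8a, Cd8b1, Cd2 and Lck), with a summed value of 7540 to 9624 over the 21 groups. By library, this sum was 7996 to 8615 in aged OTC and 9025 to 9701 in young OTC, without overlap. With the Zfp219 guide it was 8192 to 8872 in aged and 8050 to 9209 in young libraries. With the Dusp5 guide it was 7438 to 8011 in aged and 8042 to 9303 in young libraries. Of the lists for other cells, no peak overlapped Tyr, Dct, Sox10, Cd79a, Ms4a1, Csf1r, Lyz2, Foxp3 or Ncr1. Other genes of those lists did have open sites that moved with state, age or guide. The peaks of the B cell list, all at Pax5, summed to 514 to 589 in OTC Tprog libraries and 280 to 337 in OTC Tterm libraries; those of the melanoma list (2 of 5 genes) to 769 to 1068 against 665 to 717; those of the myeloid list (2 of 4 genes) to 542 to 636 in aged and 759 to 906 in young OTC libraries; and those of the regulatory and CD4 T cell list (2 of 3 genes) to 4112 to 4392 in aged and 3483 to 3729 in young OTC libraries. Most of the regulatory and CD4 T cell sum lay at Il2ra, with a mean of 3325 over all libraries against 349 at Cd4. As group means, Cd4 held 219, 436 and 430 in aged OTC Tprog, Ttran and Tterm and 410, 405 and 495 in young ones. The single NK peak and the stroma peaks held 2.87 to 20.5 and 291 to 389 over the groups. The part of other cells in the results below was not tested.

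The starts of 24 superfamily genes lay in a member peak. Of these, the 250 bases before the start are shown for 5 genes whose start peak or its neighbours carry the results below, from RefSeq on GRCm38.p6, 5′ to 3′ along the gene's strand. Capitals mark matches to NF-kB (by name), AP-1 (TGANTCA), RUNX (TGTGGT), TCF (CTTTGAT), T-box (AGGTGTGA), NFAT (TGGAAA) and interferon response (ISRE, by name) motifs searched on both strands. Fas at chr19:34290409-34290658 (plus strand) and Tnfsf14 at chr17:57194182-57194431 (minus strand) lay in their peaks 1, Tnfrsf9 at chr4:150927749-150927998 (plus strand) and Tnfsf11 at chr14:78308044-78308293 (minus strand) in their peaks 2, and Tnfsf8 at chr4:63861285-63861534 (minus strand) in its peak 4, where peaks are numbered within a gene from the strongest mean over the 48 libraries.
Fas: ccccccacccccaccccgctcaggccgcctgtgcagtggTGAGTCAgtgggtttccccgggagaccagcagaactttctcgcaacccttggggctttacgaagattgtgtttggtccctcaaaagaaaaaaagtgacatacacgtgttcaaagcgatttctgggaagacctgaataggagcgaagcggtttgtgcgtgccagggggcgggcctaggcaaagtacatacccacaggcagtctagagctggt
Tnfsf14: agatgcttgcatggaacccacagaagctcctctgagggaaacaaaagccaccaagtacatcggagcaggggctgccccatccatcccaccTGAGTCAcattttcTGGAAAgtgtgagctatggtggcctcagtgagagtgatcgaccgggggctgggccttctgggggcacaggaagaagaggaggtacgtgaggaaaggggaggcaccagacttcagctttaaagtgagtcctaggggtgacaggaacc
Tnfrsf9: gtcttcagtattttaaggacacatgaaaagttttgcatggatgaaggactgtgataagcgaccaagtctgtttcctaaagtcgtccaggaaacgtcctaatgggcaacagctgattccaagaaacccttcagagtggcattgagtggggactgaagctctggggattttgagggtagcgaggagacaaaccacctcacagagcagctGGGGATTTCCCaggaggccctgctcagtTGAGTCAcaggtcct
Tnfsf8: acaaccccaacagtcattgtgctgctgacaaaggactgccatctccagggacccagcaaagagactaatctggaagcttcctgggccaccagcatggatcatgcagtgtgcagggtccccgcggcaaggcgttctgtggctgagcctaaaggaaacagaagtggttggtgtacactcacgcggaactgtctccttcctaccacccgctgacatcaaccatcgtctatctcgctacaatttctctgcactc
Tnfsf11: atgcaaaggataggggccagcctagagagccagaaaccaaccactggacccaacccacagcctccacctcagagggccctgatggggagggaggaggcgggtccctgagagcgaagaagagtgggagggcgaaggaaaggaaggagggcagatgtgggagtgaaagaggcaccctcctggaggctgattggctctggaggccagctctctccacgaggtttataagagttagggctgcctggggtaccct
Counted from the start site, Tnfrsf9 held 2 overlapping NF-kB matches at -43 to -34 and -42 to -33 and an AP-1 match at -15 to -9. Fas held an AP-1 match at -211 to -205, and Tnfsf14 an AP-1 match at -160 to -154 beside an NFAT match at -146 to -141. No listed motif was found in these 250 bases of Tnfsf8 or Tnfsf11. In 32817 windows of the same length before RefSeq starts, 6.75% held an AP-1, 3.90% an NF-kB and 18.6% an NFAT match, so these matches describe the letters only.

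Member peaks were somewhat stronger than the table as a whole, with a median mean of 149 normalised reads against 93.9 for all peaks and a range from 9.87 to 2044. Of the 172 peaks, 76 overlapped their gene and 96 lay outside it, and 24 of the 143 whose gene had a known start held that start. Co-stimulatory receptors had 30 peaks: 7 at Tnfrsf9, 2 at Tnfrsf18 (GITR), 14 at Tnfrsf8 (CD30), 4 at Tnfrsf14 (HVEM), 2 at Cd27 and 1 at Tnfrsf25 (DR3). TNF and lymphotoxin receptors had 13, of which 10 were at Tnfrsf1b (TNFR2) and 3 at Tnfrsf1a (TNFR1). Death receptors had 10, with 4 each at Fas and Tnfrsf10b and 2 at Tnfrsf21 (DR6), and the receptors for the B cell survival factors BAFF and APRIL had 9, with 5 at Tnfrsf13b, 2 at Tnfrsf13c and 2 at Tnfrsf17. Other receptors had 20: 6 at Tnfrsf19, 4 at Tnfrsf11a (RANK), 3 each at Tnfrsf22, Tnfrsf23 and Tnfrsf26, and 1 at Tnfrsf12a. The 90 ligand peaks were 19 at Fasl, 15 at Tnfsf11, 11 each at Tnfsf8 (CD30 ligand) and Tnfsf10, 8 at Tnfsf4 (OX40 ligand), 6 at Tnfsf9 (4-1BB ligand), 5 at Cd70, 4 at Tnfsf15, 3 at Tnfsf14, 2 each at Lta, Tnfsf18 and Tnfsfm13, and 1 each at Ltb and Tnfsf13b. The strongest peaks of all were Tnfrsf1b peak 1 (mean 2044), Tnfrsf9 peak 1 (1770), Fasl peak 1 (1598), Cd27 peak 1 (1418), Tnfrsf18 peak 1 (1384), Ltb peak 1 (1341) and Tnfsf4 peak 1 (1165); the strongest peaks of the other genes had means of 60.05 (Tnfrsf25) to 833 (Tnfsf9). Values were not scaled for peak width, and comparisons below stay within a peak. Names of genes and proteins below stand for the peaks assigned by position. Neither RNA nor protein was measured in these libraries, and which gene a peak acts on was not tested.

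Over the 21 groups, Tprog was most often the state where a member peak was highest (84 of 172 peaks, against 44 for Ttran, 24 for Ttad and 20 for Tterm), and Tterm was most often lowest (93 peaks, against 37 for Tprog, 26 for Ttran and 16 for Ttad). By guide, the highest group was an OTC group for 74 peaks, a Dusp5 group for 66 and a Zfp219 group for 32. Young Dusp5 Tprog (24 peaks), aged OTC Tprog (22) and young OTC Tprog (20) were the commonest highest groups, and young Zfp219 Tterm (28) and young OTC Tterm (21) the commonest lowest. Ttad had 3 groups and each other state 6, so the counts of Ttad are not on the same footing as the others. These counts are a description with no test, are not set against all peaks, and the 2 highest groups of a peak often overlapped.

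**Figure D1:**
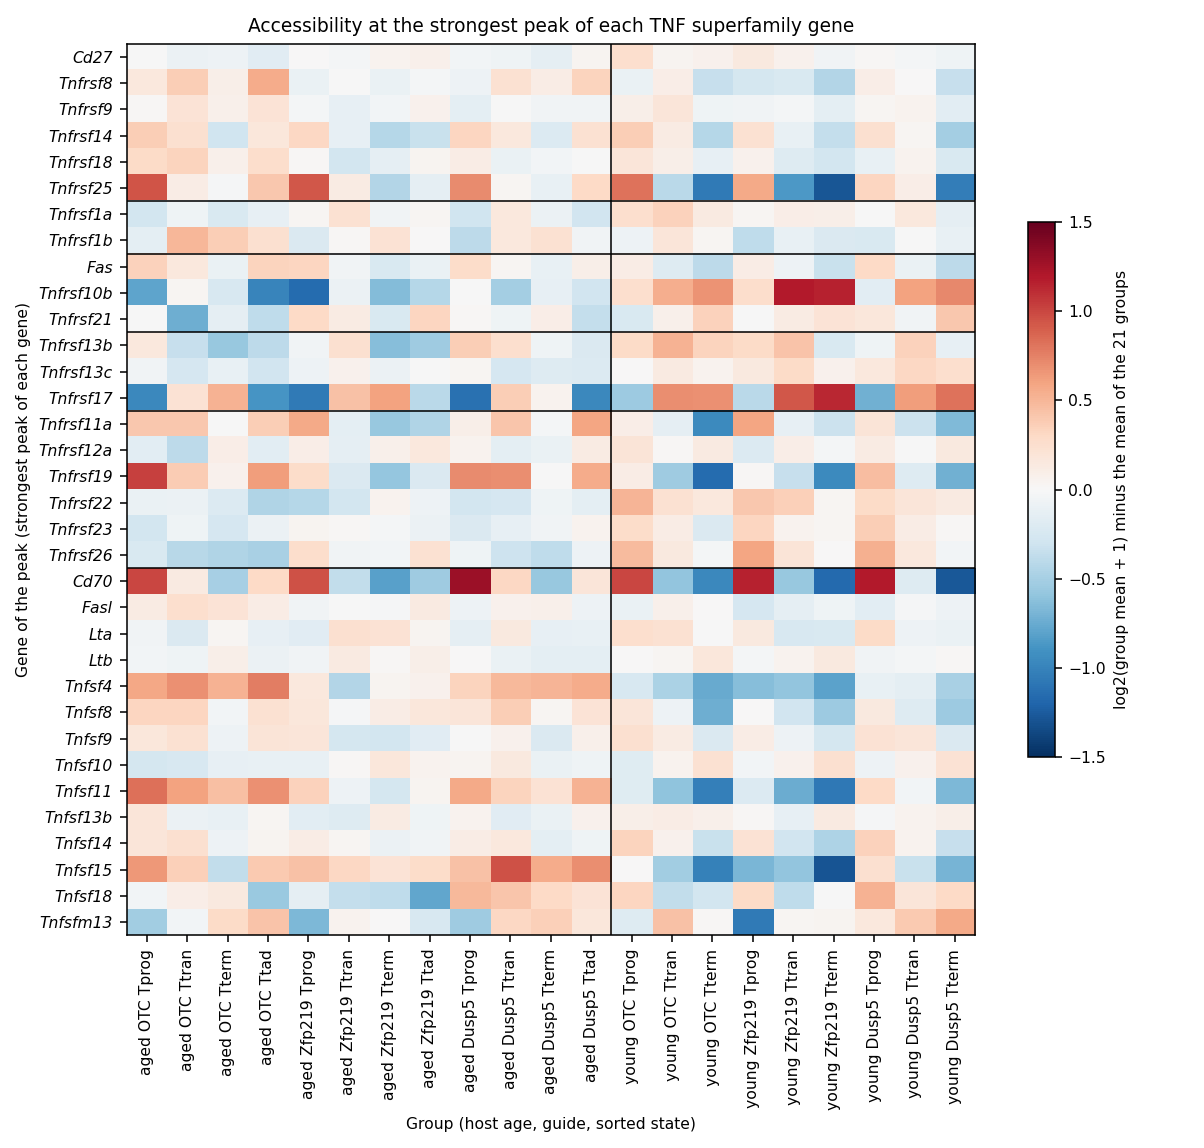
Accessibility of the strongest peak of each of the 34 superfamily genes (rows, grouped by role) in the 21 groups (columns, by age, guide and state); colour gives log2(group mean + 1) minus the mean of that value over the 21 groups. Tnfsf4 and Tnfsf11 were above their own mean in aged and below it in young OTC groups, and Cd70 was highest in the Tprog columns of both ages.

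The first question was how Tprog and Tterm differ. In OTC libraries of aged mice, 43 of the 172 peaks were higher in Tprog and 13 lower, against 8.88% of all 53868 peaks higher and 11.2% lower (20.1% called in all). In young mice 66 were higher and 10 lower, against 13.9% and 12.6% of all peaks (26.5% in all). The median difference of Tprog minus Tterm was 0.21 in aged and 0.31 in young mice over the members, on the scale of log2(value + 1) used for every difference here, and 0.01 over all peaks in both ages. Of the 90 ligand peaks, 23 were higher and 5 lower in aged mice and 40 higher and 6 lower in young mice. Of the 82 receptor peaks, 20 were higher and 8 lower in aged and 26 higher and 4 lower in young mice. Rises were thus in nearly the same proportion at ligand and receptor peaks in aged mice, and more frequent at ligand peaks in young mice. The compared libraries did not overlap at 114 of the 172 peaks in aged and 112 in young mice, against 59.4% and 54.7% of all peaks. Calls are peaks with an adjusted p under 0.05 by limma (Benjamini-Hochberg over all 53868 peaks). Leaving out aged OTC Tprog library 2 or aged OTC Tterm library 1 lowered the aged count, and lowered the calls over all peaks as well. With 2 libraries in a group, the remaining library is then assumed to vary like the other groups. Unless a clause says otherwise, each peak called by name in the OTC, guide and age comparisons below kept its call under every setting run for it, including each library left out in turn.

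Tnfrsf9, Tnfrsf4 and Tnfrsf18 mark activated T cells at the surface. Of the 7 Tnfrsf9 peaks, 1 was higher and 1 lower in Tprog than in Tterm in aged OTC libraries and 1 was higher in young ones, and of the 2 Tnfrsf18 peaks 1 was higher in each age. Tnfrsf9 peak 1 (chr4:150924098-150925433, within the gene) held 1872 and 1703 normalised reads in aged OTC Tprog, 2186 and 1880 in Ttran, 1811 and 1912 in Tterm and 2083 and 1986 in Ttad. These aged groups overlapped, and neither Tprog nor Ttad was called against Tterm at this peak. In young OTC the peak held 2040, 2046 and 1943 normalised reads in Ttran and 1757, 1691 and 1634 in Tterm. These young groups did not overlap, and Ttran was higher by 0.25 ± 0.06 (SE; limma adjusted p = 0.00272), a call that was lost with quantile normalization (adjusted p = 0.0843). The start of Tnfrsf9 (peak 2, chr4:150927209-150928283) had a mean of 668 and was not called between states. The Tnfrsf9 peak that was higher in Tprog in both ages was weaker and lay inside the gene (peak 6, chr4:150939414-150940495; chosen after its values were seen). It held 281 and 362 in aged OTC Tprog, 73.7 and 123 in Ttran, 102 and 88.9 in Tterm and 195 and 181 in Ttad. In young OTC libraries it held 262 and 298 in Tprog, 77.3, 70.4 and 48.6 in Ttran, and 53.7, 55.0 and 48.4 in Tterm. Tprog libraries were the highest in both ages with no overlap, and the difference from Tterm was 1.73 ± 0.28 (SE; adjusted p = 8.48e-07) in aged and 2.40 ± 0.26 (8.84e-13) in young mice by limma.

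Tnfrsf18 peak 1 (chr4:156021275-156022916) lies between Tnfrsf4 and Tnfrsf18, 3406 bases from the latter gene. In young OTC mice it held 1514 and 1638 in Tprog, 1404, 1513 and 1498 in Ttran and 1314, 1299 and 1223 in Tterm, so that Tprog was above Tterm in every library, by 0.30 ± 0.07 (limma adjusted p = 0.000436). In aged OTC mice Tprog held 1633 and 1742 and Tterm 1446 and 1480, a difference of 0.20 (adjusted p = 0.0459) that was lost when any of the 4 libraries was left out (adjusted p = 0.0639 to 0.301). The start of Tnfrsf18 (peak 2, chr4:156026026-156026575, mean 371) was called in none of the comparisons between states. The peak that holds the start of Tnfrsf4 (chr4:156013215-156014684, mean 594) was assigned to the neighbouring gene Sdf4 by the rule and is not a member; it was not called between Tprog and Tterm.

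**Figure D2:**
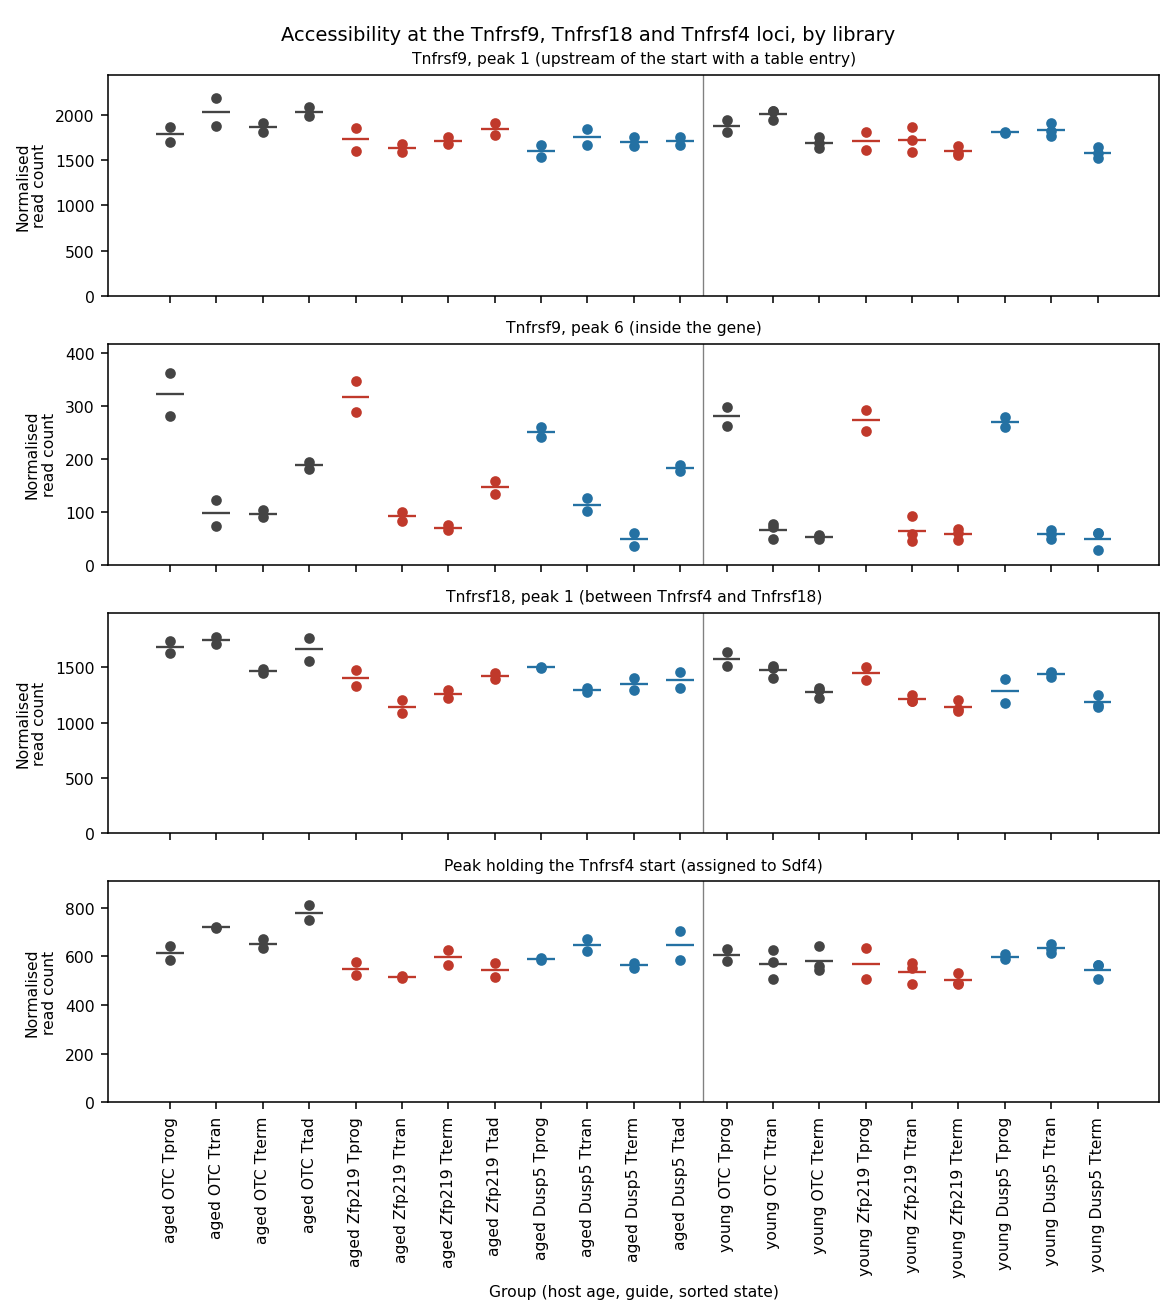
Normalised reads in each library (points) at Tnfrsf9 peak 1, Tnfrsf9 peak 6, Tnfrsf18 peak 1 and the peak at the start of Tnfrsf4, by age (split by the vertical line), guide (OTC dark grey, Zfp219 red, Dusp5 blue) and state; horizontal bars are group means and vertical axes start at 0. Tnfrsf9 peak 6 separates Tprog from Tterm, while at Tnfrsf9 peak 1 the aged OTC states overlap.

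Among the other co-stimulatory receptors, HVEM (Tnfrsf14), a receptor for LIGHT and for the inhibitory receptor BTLA, opened in Tprog at sites upstream of the gene. Tnfrsf14 peak 2 (chr4:154935536-154937200) held 541 and 690.3 in aged OTC Tprog against 232 and 254 in Tterm, and 825 and 857 against 303, 359 and 281 in young mice. The difference was 1.33 ± 0.13 (limma adjusted p = 4.45e-14) in aged and 1.42 ± 0.12 (1.21e-17) in young mice. Peak 1 (chr4:154943732-154944624) rose less, by 0.67 ± 0.12 in aged and 0.81 ± 0.11 in young mice. Tnfrsf14 had 3 of its 4 peaks higher in Tprog in each age and none lower.

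CD30 (Tnfrsf8) went both ways, with 2 peaks higher and 2 lower in aged Tprog and 3 higher and 1 lower in young Tprog. Its peak 6 (chr4:145321772-145323889), 6608 bases outside the gene, held 153 and 122 in aged OTC Tprog against 276 and 303 in Tterm, and 87.4 and 135 against 228, 212 and 237 in young mice. All Tprog libraries were below all Tterm libraries, by -1.07 ± 0.20 (limma adjusted p = 1.55e-05) and -1.05 ± 0.18 (3.07e-06). The start of Tnfrsf25, receptor for Tnfsf15, held 101 and 104 in young OTC Tprog and 26.5, 21.2 and 33.7 in Tterm (peak 1, chr4:152115793-152116212; difference 1.90 ± 0.35, adjusted p = 1.1e-05 by limma); aged Tprog held 86.1 and 138 and Tterm 56.7 and 57.7, which was not called. CD27, the receptor for CD70, changed little at its start (peak 1, chr6:125236545-125239806), where the young difference of 0.19 (adjusted p = 0.0407) was lost under quantile normalization (0.129) and without young OTC Tprog library 1 (0.5), among other libraries.

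TNFR2 (Tnfrsf1b), the TNF receptor of activated T cells, carried sites of opposite direction within the gene. Its peak 1 (chr4:145220002-145222538) held 1815 and 1850 in aged OTC Tprog, 2858 and 2865 in Ttran, 2488 and 2744 in Tterm and 2547 and 2232 in Ttad, so that Tprog stood lowest, by -0.51 ± 0.07 against Tterm (limma adjusted p = 1.41e-09). In young OTC mice Tprog held 1879 and 1982 and Tterm 2189, 2034 and 1982, which was not called. Peak 3 of the same gene (chr4:145235669-145236662) went the other way, with 911 and 1010 in aged Tprog against 735 and 721 in Tterm and 1125 and 1018 against 511, 613 and 591 in young mice. Its difference was 0.91 ± 0.10 in young mice (limma adjusted p = 1.17e-12) and 0.40 ± 0.11 in aged mice (0.00378), the latter lost without aged OTC Tprog library 2 (0.0954). TNFR1 (Tnfrsf1a), whose death domain lets TNF kill as well as activate, was not called between these states at its strongest peak (chr6:125352832-125354131, mean 301).

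Fas, the death receptor that removes activated T cells, had 3 of its 4 peaks higher in Tprog in both ages. Fas peak 3 (chr19:34298571-34299956, within the gene) held 435 and 366 in aged OTC Tprog against 173 and 137 in Tterm, and 317 and 235 against 126, 135 and 110.2 in young mice. Every Tprog library was above every Tterm library, by 1.36 ± 0.20 (limma adjusted p = 3.02e-08) in aged and 1.14 ± 0.18 (2.21e-07) in young mice. The start of Fas (peak 1, chr19:34289979-34290891) moved less, by 0.45 and 0.48. Those 2 calls were lost without aged OTC Tprog library 1 (adjusted p = 0.0923) or Tterm library 2 (0.261) in aged mice and without young OTC Tprog library 2 (0.283) in young mice. Tnfrsf10b and Tnfrsf21 had weak peaks, with strongest means of 78.8 and 108.

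At Tnfrsf17, the gene of BCMA, a receptor known from plasma cells, the site moved against most members. Its peak 1 (chr16:11284860-11286348) lies 26884 bases from the gene and held 128 and 129 in aged OTC Tprog, 329 and 258 in Ttran, 346 and 377 in Tterm and 153 and 121 in Ttad. Young OTC libraries held 143 and 203 in Tprog, 411, 452 and 364 in Ttran and 429, 377 and 408 in Tterm. Among Tprog, Ttran and Tterm, Tprog was lowest in both ages, while in aged mice Ttad overlapped it; Tprog differed by -1.49 ± 0.17 (limma adjusted p = 1.14e-11) and -1.24 ± 0.15 (1.91e-10) against Tterm.

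Some peaks of Tnfrsf26 and Tnfrsf19 were higher in Tprog. Tnfrsf26 peak 2 (chr7:143624779-143625638), in a cluster with Tnfrsf22 and Tnfrsf23, which encode decoy receptors for TRAIL, held 245 and 308 in aged OTC Tprog against 66.5 and 72.4 in Tterm, and 267 and 321 against 73.3, 55.0 and 49.5 in young mice (differences of 1.97 ± 0.26 and 2.30 ± 0.23, limma adjusted p = 1.36e-09 and 6.56e-14). The start of Tnfrsf19, known as TROY, held 135 and 154 against 42.5 and 57.7 in aged mice and 191 and 135 against 36.0, 39.3 and 29.2 in young mice (peak 3, chr14:61045944-61047014; 1.52 ± 0.31 and 2.18 ± 0.28). Another Tnfrsf19 peak, peak 4 (chr14:60935277-60936110), was among the largest falls. It was lower in Tprog by -1.11 ± 0.31 in young mice (limma adjusted p = 0.00443; 0.0973 without young OTC Tprog library 1) and by -0.95 in aged mice (0.0387; 0.0625 by edgeR, 0.0688 in a fit of the compared groups alone, and lost without single libraries).

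The ligands gave the largest rises in Tprog. Tnfsf8, the ligand of CD30, had 8 of 11 peaks higher in Tprog and none lower in each age. Its start (peak 4, chr4:63860885-63861953) held 215 and 206 in aged OTC Tprog, 116 and 113 in Ttran, 65.4 and 64.2 in Tterm and 171 and 143 in Ttad. In young OTC mice it held 178 and 165 in Tprog, 90.5, 94.6 and 112 in Ttran and 52.5, 61.3 and 54.6 in Tterm. The 3 shared states stood in the order Tprog, Ttran, Tterm without overlap in both ages, with Tprog above Tterm by 1.68 ± 0.25 (limma adjusted p = 4.86e-08) and 1.60 ± 0.23 (1.17e-08). The largest rise in aged Tprog was at weak Tnfsf8 peak 11 (chr4:63905989-63906436), with 61.1 and 38.1 against 1.09 and 5.50 in Tterm (3.74 ± 0.76, adjusted p = 7.96e-05).

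CD70, the ligand of CD27, followed the same order. Cd70 peak 1 (chr17:57131275-57132362), 13635 bases outside the gene, held 344 and 349.6 in aged OTC Tprog, 194 and 187 in Ttran, 134 and 111 in Tterm and 228 and 197 in Ttad. Young OTC mice held 356 and 338 in Tprog, 119, 107 and 118 in Ttran and 103, 77.1 and 83.2 in Tterm. Tprog exceeded Tterm by 1.5 ± 0.21 (limma adjusted p = 6.85e-09) in aged and 1.98 ± 0.19 (2.86e-15) in young mice. The neighbouring genes on chromosome 17 moved less: the start of Tnfsf14 (peak 1, chr17:57193628-57194992) rose by 0.66 ± 0.11 in young Tprog (1.08e-06) and was not called in aged Tprog, and Tnfsf9 peak 1 (chr17:57108166-57109395) rose by 0.46 ± 0.10 in young Tprog (8.97e-05) and was not called in aged Tprog either.

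OX40 ligand (Tnfsf4) and RANKL (Tnfsf11) showed more called peaks in young than in aged mice: 7 of 8 and 12 of 15 were higher in young Tprog, and 2 and 3 in aged Tprog. The young contrast had 3 Tterm libraries against 2 in aged mice, and it called 26.5% against 20.1% of all peaks. Counts of calls are therefore no test of an age difference, and the direct test, given below, called 9 member peaks in all. Tnfsf4 peak 4 (chr1:161435877-161437060) held 291 and 353 in aged OTC Tprog against 106 and 99.0 in Tterm, and 337 and 298 against 42.3, 34.6 and 49.5 in young mice. The differences were 1.64 ± 0.24 (limma adjusted p = 5.86e-08) and 2.90 ± 0.22 (4.31e-20). Tprog libraries of the 2 ages overlapped, while both aged Tterm libraries were above the 3 young ones. Tnfsf11 peak 8 (chr14:78384479-78384872), 76436 bases from the gene, held 137 and 122 against 6.54 and 18.3 in aged mice and 54.4 and 89.0 against 1.26, 2.36 and 2.25 in young mice. This was the largest rise of young Tprog, 4.60 ± 0.58 (3.89e-10), and was 3.43 ± 0.64 (1.47e-05) in aged Tprog; Tterm values of a few reads set its size.

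Fas ligand, the killer molecule of cytotoxic T cells, had 2 peaks higher and 4 lower of 19 in Tprog in each age. Fasl peak 7 (chr1:161744017-161745350; chosen after its values were seen) was lower by -0.75 ± 0.16 in aged (limma adjusted p = 0.000104) and -0.53 ± 0.14 in young mice (0.00266), and its strongest peak (peak 1, chr1:161765890-161768076) was not called between states. No peak of Ltb, Tnfsf13b or Tnfsfm13 was called between OTC groups or between a guide and OTC, the start of Ltb (peak 1, chr17:35194147-35197584, mean 1341) included.

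Each age and guide gives its own, separate libraries for this contrast, so the calls were compared over the 6 sets. Of the 172 peaks, 24 peaks of 12 genes (14%) were higher in Tprog in all 6 sets, against 3.01% of all peaks, and 3 (1.74%) were lower in all 6, against 3.29%. The 24 were 4 peaks of Tnfsf8, 3 each of Fas and Tnfsf11, 2 each of Cd70, Fasl, Tnfrsf14, Tnfrsf19 and Tnfsf4, and 1 each of Tnfrsf1b, Tnfrsf26, Tnfrsf9 and Tnfsf14. Tnfrsf9 peak 6 rose by 1.73 to 2.51 over the sets, Cd70 peak 1 by 1.5 to 2.46 and Tnfsf4 peak 4 by 1.64 to 2.90. The 3 lower were Tnfrsf17 peak 1 (-1.67 to -1.18), Tnfrsf8 peak 6 (-2.17 to -0.83) and Fasl peak 3 (-0.51 to -0.37). Within OTC alone, 42 peaks were called in both ages, all in the same direction, which is 75% of the 56 aged and 55.3% of the 76 young calls. These OTC shares were not set against all peaks, so they do not set the members apart.

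**Figure D3:**
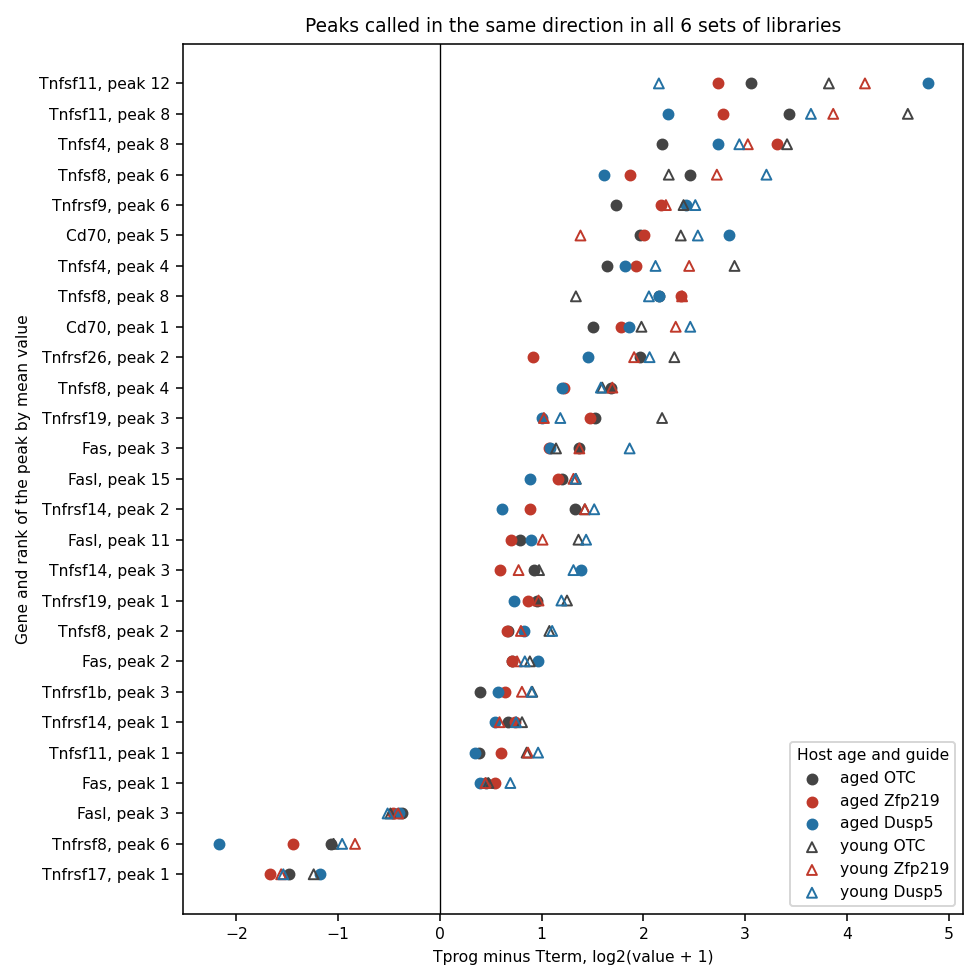
Difference of Tprog minus Tterm, as log2 fold change of value + 1, at the 27 member peaks called in the same direction in all 6 sets of libraries; each point is a set (aged filled, young open; OTC dark grey, Zfp219 red, Dusp5 blue). The points of Tnfrsf17 peak 1, Tnfrsf8 peak 6 and Fasl peak 3 lie below 0 and those of the other 24 peaks above it.

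Ttran and Tterm, which share Tim-3 and differ in Slamf6, were closer. Of the 172 peaks, 11 were higher and 1 lower in aged OTC Ttran (1.87% and 1.35% of all peaks, 3.22% in all), and 33 were higher and 1 lower in young OTC Ttran (5.02% and 3.36%, 8.38% in all). The libraries did not overlap at 82 member peaks in aged and 75 in young mice, against 44.9% and 29.1% of all peaks. The aged count fell from 12 to 5 to 7 without any of the 4 libraries. In Zfp219 libraries 2 aged and 9 young member peaks were called between these states, against 1.12% and 2.15% of all peaks. In Dusp5 libraries 11 and 34 were called, against 1.74% and 8.89% of all peaks. No member peak was called in the same direction in all 6 sets of age and guide (0.0371% and 0.00186% of all peaks). CD30 held 7 of the 33 young rises and none of the aged ones, a difference that was not tested. Tnfrsf13b (TACI, a receptor for BAFF and APRIL) peak 4 (chr11:61112302-61113092) held 58.7 and 63.8 in aged OTC Ttran against 15.3 and 13.7 in Tterm (2.01 ± 0.40, limma adjusted p = 0.000864). In young mice it held 117, 150.1 and 73.9 against 56.9, 26.7 and 54.0, called at 0.00432 but lost without young OTC Tterm library 2 (0.108) or Ttran library 2 (0.0668). Tnfrsf14 peak 2 was higher in aged Ttran by 0.86 ± 0.13 (4e-06), Tnfsf8 peak 7 (chr4:63870668-63871402) in young Ttran by 1.68 ± 0.36 (0.000627) and Tnfsf4 peak 4 in young Ttran by 1.08 ± 0.20 (4.39e-05). Tnfsf8 peak 11 (3.45) and Fas peak 3 (0.93) were also among the largest aged rises and lost the call without aged OTC Tterm library 1 (adjusted p = 0.165), and without Tterm library 2 (0.082) or Ttran library 1 (0.134). The falls, Tnfrsf12a peak 1 (the TWEAK receptor) by -0.49 in aged and Fasl peak 10 by -0.52 in young Ttran, were lost without single libraries as well: aged OTC Tterm library 1 (0.148) and Ttran library 2 (0.0605) for the former, young OTC Tterm library 1 (0.167) and 5 others for the latter.

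Ttad cells, negative for both sorting markers and present here from aged mice alone, had 22 member peaks higher and 6 lower than Tterm in OTC libraries (3.02% and 4.26% of all peaks, 7.28% in all) and 3 higher and 6 lower than Tprog (3.82% and 2.73%, 6.55% in all). Leaving out any of the 4 libraries gave 12 to 17 calls in place of 28, and 4 to 5 in place of 9. Ttad libraries did not overlap those of Tterm at 100 member peaks (47.9% of all peaks) or those of Tprog at 89 (47.6%). Several sites that were higher in Tprog than in Tterm were also higher in Ttad than in Tterm. Tnfrsf14 peak 2 was higher than in Tterm by 1.03 ± 0.13 (limma adjusted p = 1.03e-08), the start of Tnfsf8 (peak 4) by 1.26 ± 0.25 (0.000183) and Fas peak 3 by 0.94 ± 0.20 (0.000509). Tnfrsf17 peak 1 overlapped between Ttad (153 and 121) and Tprog (128 and 129) and was below Tterm by -1.41 ± 0.17 (1.17e-09). Against Tprog, Ttad was lower at Tnfsf4 peak 4 (122 and 153 against 291 and 353; -1.22 ± 0.24, 0.000271) and at Tnfrsf1b peak 3 (582 and 643; -0.65 ± 0.11, 1.38e-05), and higher at Tnfrsf1b peak 1 (0.38 ± 0.07, 3.8e-05). At CD30, Tnfrsf8 peak 1 (chr4:145299774-145300887, within the gene) held 1045 and 1069 in Ttad against 753 and 848 in Tprog and 735 and 792 in Tterm (0.47 ± 0.11 over Tterm, 0.0016; 0.0562 without aged OTC Tterm library 1).

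The 3 guides give separate libraries for the Ttad contrasts. Against Tterm, 1 peak was higher in all 3 sets (Tnfrsf9 peak 6, by 0.97 to 1.98; 0.581% of members and 0.236% of all peaks) and 1 was lower (Tnfrsf17 peak 1, by -1.41 to -1.03; 0.514% of all peaks). In OTC alone the call of Tnfrsf9 peak 6 was lost without any of its 4 libraries (adjusted p = 0.0676 to 0.166). Against Tprog, Tnfrsf1b peak 1 was higher in all 3 sets (0.837% of all peaks) and Cd70 peak 1 and Tnfrsf1b peak 3 were lower (1.16% of members and 0.468% of all peaks), Cd70 by -1.49 to -0.71; in OTC alone the Cd70 call (adjusted p = 0.0207) was lost without any of its 4 libraries (0.0501 to 0.164). The remaining largest OTC differences of Ttad, at Tnfsf8 peaks 6 and 8, Tnfrsf26 peaks 2 and 3, Tnfsf18 peak 1, Fasl peak 7, Tnfsf4 peak 8 and Tnfrsf8 peak 6, each lost the call without at least 2 of the 4 libraries.

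Host age gave the largest number of calls, in a contrast of 6 aged and 8 young libraries, more than any contrast of 2 states had. Counts of calls are therefore no measure of which difference was larger. Within OTC Tprog, Ttran and Tterm alone, age called 15.4%, 18.3% and 18.9% of all peaks. Tprog against Tterm called 20.1% in aged and 26.5% in young OTC libraries. Over Tprog, Ttran and Tterm with each state weighted equally, 59 member peaks were higher and 29 lower in aged than in young OTC libraries, against 17.3% and 19.1% of all peaks (36.5% in all). In every shared state at once, the ages did not overlap at 46 member peaks, against 17.2% of all peaks. By role, 42 of 90 ligand peaks were higher and 7 lower, with a median difference of 0.30, and 17 of 82 receptor peaks were higher and 22 lower, with a median of -0.01, against 0.00 over all peaks. OX40 ligand (7 of 8 higher) and RANKL (13 of 15 higher) led, and CD70 had 4 of 5, TRAIL 5 of 11 and Fas ligand 6 of 19 higher, the last 2 with 1 and 4 lower. TNF receptors (2 higher and 6 lower of 13) and the other receptors (2 higher and 7 lower of 20) went mostly the other way. Of the 96 member peaks outside gene bodies 42 were higher and 12 lower, and of the 76 on gene bodies 17 were higher and 17 lower.

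At Tnfsf4, whose product is the ligand of OX40 and is best known from antigen-presenting cells, the strongest peak (peak 1, chr1:161375218-161377206) lies 18232 bases outside the gene. Aged OTC libraries held 1689 and 1733 in Tprog, 1829 and 1857 in Ttran, and 1663 and 1627 in Tterm. Young OTC libraries held 906 and 1028 in Tprog, 812, 772 and 894 in Ttran, and 664, 711 and 670.4 in Tterm. Every aged library was above every young library, by 1.08 ± 0.05 on average (limma adjusted p = 7.09e-33). Peak 2 (chr1:161394668-161397242, overlapping the gene) rose by 1.02 ± 0.07 (9.14e-24), and the weaker peaks 6 (chr1:161387282-161387812) and 7 (chr1:161406281-161406767) by 1.68 ± 0.23 (4.32e-09) and 1.86 ± 0.26 (7.55e-09), the latter the largest rise of all members named by the rule.

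At Tnfsf11, the gene of RANKL, strong sites upstream of the start differed between the ages. Peak 3 (chr14:78329593-78331107), 21550 bases from the gene, held 617 and 667 in aged OTC Tprog, 679.9 and 767 in Ttran and 787 and 732 in Tterm. In young OTC libraries it held 252 and 282 in Tprog, 306, 288 and 297 in Ttran and 182, 169 and 248 in Tterm. The ages did not overlap and differed by 1.49 ± 0.08 (limma adjusted p = 5.44e-30). Peak 1 (chr14:78319424-78322410) had 609 to 900.2 in 6 aged libraries (median 769) and 237 to 443 in 8 young ones (median 322), a difference of 1.23 ± 0.06 (1.36e-30), and peak 4 (chr14:78356113-78357307) differed by 1.43 ± 0.09 (7.51e-27). The start itself (peak 2, chr14:78306434-78308371) differed less, by 0.58 ± 0.08 (6.71e-10), with 457 to 610.4 in aged and 236 to 509.9 in young libraries, which overlapped.

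**Figure D4:**
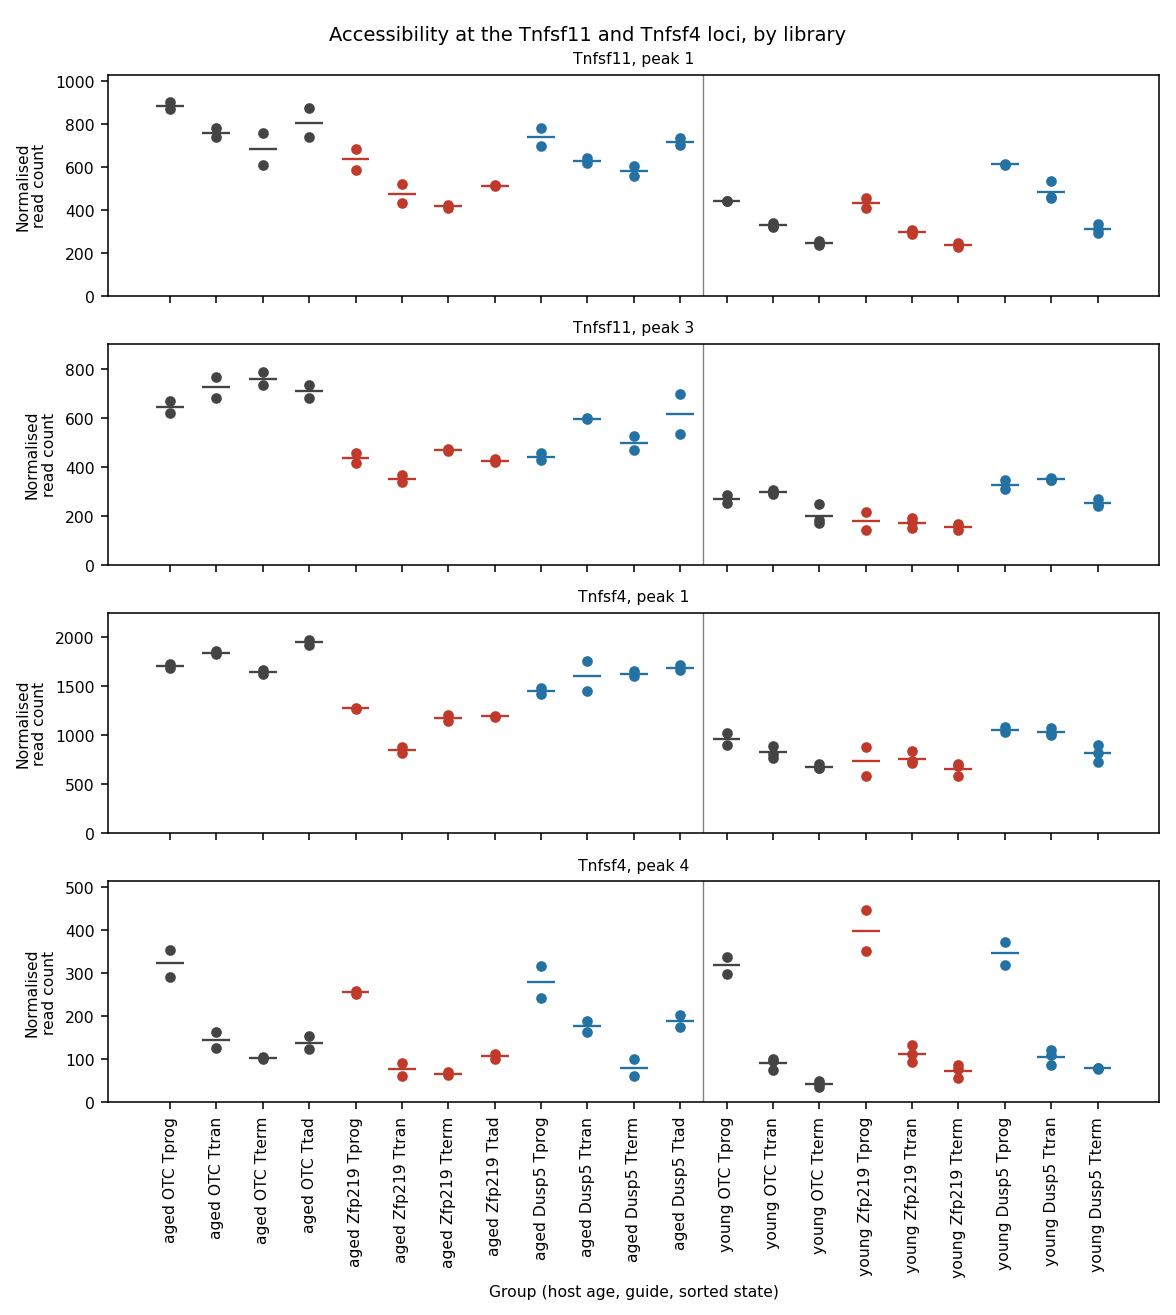
Normalised reads in each library (points) at Tnfsf11 peaks 1 and 3 and Tnfsf4 peaks 1 and 4, by age (split by the vertical line), guide (OTC dark grey, Zfp219 red, Dusp5 blue) and state; horizontal bars are group means and vertical axes start at 0. Aged OTC libraries lie above young OTC libraries in all shared states at Tnfsf11 peaks 1 and 3 and Tnfsf4 peak 1, whereas at Tnfsf4 peak 4 the 2 ages meet in Tprog.

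Peaks of other ligand genes were also higher in aged hosts. Tnfsf10 peak 10 (chr3:27297633-27298522), near the gene of TRAIL, held 57.8 to 76.3 in aged and 10.03 to 39.1 in young OTC libraries (1.49 ± 0.23, limma adjusted p = 9.15e-08). Cd70 peaks 3 and 5 rose by 1.23 ± 0.20 (3.75e-07) and 1.22 ± 0.29 (0.00034). Cd70 peak 2 (chr17:57149168-57150335, overlapping the gene) held 176 to 252 in aged and 104 to 145 in young OTC libraries (0.90 ± 0.12, limma adjusted p = 2.76e-10), and Tnfsf10 peak 3 (chr3:27310727-27311753) 433 to 522 against 231 to 335 (0.68 ± 0.08, 2.94e-12); neither pair of ranges overlapped. The start of Tnfsf10 (peak 1, chr3:27316367-27317866) went slightly down, by -0.24 ± 0.07 (0.00203). Tnfsf8 peak 1 (chr4:63898284-63900462) rose by 0.41 ± 0.06 (3.03e-09), Tnfsf15 peak 1 (chr4:63771294-63773066), near the gene of the DR3 ligand, by 0.73 (3.26e-05), and Fasl peak 1 by 0.21 ± 0.04 (3.58e-06). The lymphotoxin alpha peak (Lta peak 1, chr17:35209787-35211158) was lower in aged hosts, by -0.24 ± 0.06 (0.00167).

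Of the 22 receptor peaks that fell with age, 7 were at the other receptors and 6 at the TNF and lymphotoxin receptors. Tnfrsf26 peak 1 (chr7:143627728-143629945, overlapping the gene) held 370 to 500.5 in aged OTC libraries (median 394) and 481 to 747 in young ones (median 569), and fell by 0.57 ± 0.07 (limma adjusted p = 1.97e-11). Tnfrsf23 peak 2 (chr7:143666473-143667564), in the same cluster, held 43.1 to 124 against 145 to 217 and fell by 0.92 ± 0.14 (3.54e-08). Tnfrsf13b peak 4 fell by 1.14 ± 0.22 (1.34e-05), Tnfrsf10b peak 1 (chr14:69757990-69759099) by 0.81 ± 0.18 (0.000118), the strongest Tnfrsf1a peak by 0.43 ± 0.09 (4.37e-05) and Cd27 peak 1 by 0.17 ± 0.04 (0.000669). The co-stimulatory receptors rose in part: Tnfrsf8 peak 1 by 0.32 ± 0.06 (3.44e-06), Tnfrsf9 peak 6 by 0.54 ± 0.15 (0.00352) and Tnfrsf18 peak 1 by 0.18 ± 0.04 (0.000298), while Tnfrsf9 peak 1 was not called. Fas rose at its start by 0.29 ± 0.07 (0.000447) and at peak 3 by 0.53 ± 0.11 (2.61e-05), and Tnfrsf1b peak 1 rose by 0.19 ± 0.04 (7.42e-06).

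The age contrast was also taken in Zfp219 and in Dusp5 libraries, which share none with the OTC contrast. Of the 88 OTC calls, 45 were called in the same direction in Zfp219 libraries (3 in the opposite direction) and 53 in Dusp5 libraries (2 opposite). These overlaps were not set against all peaks. In all 3 sets 30 peaks of 10 genes (17.4%) were higher in aged hosts, against 5.31% of all peaks, and 8 peaks of 7 genes (4.65%) were lower, against 6.77%. The 30 were 6 peaks of Tnfsf11, 4 each of Fasl, Tnfrsf8, Tnfsf10 and Tnfsf4, 3 of Cd70, 2 of Tnfsf8 and 1 each of Tnfrsf1b, Tnfsf15 and Tnfsf9. The rise of Tnfsf4 peak 1 ranged from 0.61 to 1.08 over the sets, that of Tnfsf11 peak 3 from 0.73 to 1.49 and that of Tnfsf11 peak 1 from 0.51 to 1.23, in each case largest in OTC libraries.

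The Zfp219 guide was compared with OTC within each age. Over the 4 aged states 16 member peaks were higher and 49 lower with the Zfp219 guide, against 12.1% and 13.7% of all peaks (25.8% in all), with a median difference of -0.06 against 0.01. Over the 3 young states 5 were higher and 20 lower, against 1.92% and 5.15% (7.07% in all). The libraries did not overlap in any state at 25 member peaks in aged and 5 in young hosts, against 7.68% and 2.08% of all peaks. In aged hosts ligands had 2 higher and 29 lower of 90, co-stimulatory receptors 3 and 10 of 30, death receptors 2 and 4 of 10, and the other receptors 4 and 2 of 20. RANKL had 11 of 15 peaks lower and OX40 ligand 6 of 8, and neither had a peak higher. The summed peaks of the regulatory and CD4 T cell list were also lower with this guide, without overlap: 3634 to 3922 against 4112 to 4392 in aged and 2956 to 3461 against 3483 to 3729 in young libraries. Those of the melanoma list held 477 to 782 against 665 to 907 and those of the myeloid list 590.1 to 747 against 542 to 636 in aged libraries, with overlap. In the first of these 3 lists most of the sum lay at Il2ra. As group means, Cd4 held 261, 318, 416 and 354 in aged Zfp219 Tprog, Ttran, Tterm and Ttad. With OTC it held 219, 436, 430 and 349. The part of these lists in the guide result was not tested. These aged contrasts use the same aged OTC libraries as the age contrast above, so the 2 are not independent.

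Tnfsf4 peak 1 held 1282 and 1269 in aged Zfp219 Tprog, 878 and 818 in Ttran, 1151 and 1207 in Tterm and 1200 and 1193 in Ttad, with 1627 to 1979 in the 8 aged OTC libraries (median 1781). No Zfp219 library reached an OTC library, and the average difference was -0.68 ± 0.05 (limma adjusted p = 3.75e-21). The state with the largest difference was Ttran, at -1.12 (limma adjusted p = 6.4e-16), and the smallest was Tprog, at -0.42 (0.00507), with Tterm at -0.48 (0.000691) and Ttad at -0.70 (1.66e-07); these single-state differences were run in the main fit alone. In young hosts 588 to 886 with the Zfp219 guide overlapped 664 to 1028 with OTC (-0.19, 0.00582; 0.0857 under quantile normalization, 0.0597 without young OTC Tprog library 2 and 0.281 without young Zfp219 Tprog library 2). Peaks 7 and 6 of Tnfsf4 gave the largest falls in aged hosts, -1.32 ± 0.24 (9.58e-06) and -1.28 ± 0.22 (1.5e-06), the latter with 29.7 to 49.7 normalised reads against 68.3 to 122.

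At Tnfsf11 the fall was seen in both ages. Peak 3 held 337 to 473 in 8 aged Zfp219 libraries (median 423) against 617 to 787 with OTC (median 706), and 139.8 to 214 in 8 young Zfp219 libraries (median 162) against 169 to 306 (median 267). The ranges were apart in aged and overlapped in young hosts, and the differences were -0.76 ± 0.07 (limma adjusted p = 1.66e-14) and -0.59 ± 0.08 (6.87e-09), the latter the largest young fall. The start of Tnfsf11 (peak 2) fell by 0.39 ± 0.07 (5.99e-06) in aged and 0.28 ± 0.07 (0.00628) in young hosts. Peak 1 fell by 0.63 ± 0.06 (4.64e-15) in aged hosts, and peak 4 by 0.79 ± 0.08 (4.77e-14).

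Co-stimulatory receptors had 10 of 30 peaks lower in aged hosts. Tnfrsf18 peak 1 held 1085 to 1474 in aged Zfp219 libraries against 1446 to 1778 with OTC and fell by 0.33 ± 0.04 (limma adjusted p = 2.62e-11); in young hosts it fell by 0.19 ± 0.04 (0.000513), which quantile normalization left at 0.0532. The peak at the start of Tnfrsf4, no member, fell by 0.32 ± 0.06 in aged hosts (2.78e-06). Tnfrsf8 peak 1 fell by 0.35 ± 0.05 (1.12e-07) and Tnfrsf8 peak 12 (chr4:145267612-145268111), where aged OTC held 91.5 to 205 and aged Zfp219 58.2 to 118, by 0.96 ± 0.15 (5.1e-07). The fall of Tnfrsf9 peak 1, 0.16 ± 0.04 in aged and 0.15 ± 0.04 in young hosts (0.0005 and 0.00502), was lost under quantile normalization in both (0.232 and 0.277), in young hosts also without young Zfp219 Tprog library 2 (0.0639). The strongest peaks of Tnfrsf14, Tnfsf9, Cd70 and Tnfrsf1b fell in aged hosts by 0.27 (0.000319), 0.26 (4.09e-05), 0.43 (0.000779) and 0.23 (1.89e-08), and Fas peak 3 and Tnfsf10 peak 3 by 0.41 (0.000691) and 0.42 (1.07e-06). Tnfrsf1b peak 1 was also among the largest young falls, at 0.29 ± 0.03 (8.07e-10). Tnfsf10 peak 8 fell by 0.47 in young hosts (0.0166), which was lost in a fit of the compared groups alone (0.0623) and without young OTC Tprog library 2 (0.0989) or young Zfp219 Tprog library 1 (0.0585).

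Rises with the Zfp219 guide were few. Tnfrsf26 peak 1 held 677 and 589.8 in aged Zfp219 Tprog, 521 and 496 in Ttran, 479 and 544 in Tterm and 579.9 and 652 in Ttad, against 361 to 500.5 in the 8 aged OTC libraries, and rose by 0.50 ± 0.06 (limma adjusted p = 2.71e-10). In each state the Zfp219 libraries were above the OTC libraries. Tnfrsf1b peak 4 (chr4:145209454-145212094) rose by 0.30 ± 0.06 (2.49e-05), Tnfrsf13b peak 4 by 0.80 ± 0.20 (0.00136) and the start of Tnfsf10 by 0.21 ± 0.06 (0.00399). Tnfrsf14 peak 3 (0.20, 0.0317) was the third largest by the naming rule and was lost under quantile normalization (0.0528) and without 8 single libraries, among them aged OTC Tprog library 1 (0.0682) and Ttad library 2 (0.051).

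Within Ttad, 5 member peaks were higher and 25 lower with the Zfp219 guide, against 3.66% and 4.56% of all peaks (8.23% in all). The libraries did not overlap at 96 member peaks (51.2% of all peaks), and leaving out any of the 4 libraries gave 11 to 19 calls in place of 30. Tnfsf4 peak 1 fell by 0.70 ± 0.10 (limma adjusted p = 1.66e-07), Tnfsf11 peak 1 by 0.65 ± 0.12 (7.36e-05), Tnfsf10 peak 3 by 0.77 (7.23e-05) and Tnfrsf8 peak 1 by 0.60 (4.88e-05), and Tnfrsf26 peak 1 rose by 0.71 ± 0.12 (2.57e-05). At Tnfrsf8 peak 1 both Ttad libraries with the guide were below both OTC Ttad libraries.

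The Dusp5 guide gave fewer calls. The regulatory and CD4 T cell list summed to 3610 to 3956 in aged Dusp5 libraries, below the 4112 to 4392 of aged OTC. In young Dusp5 libraries it summed to 3197 to 3901, which overlapped young OTC. Most of this sum lay at Il2ra. As group means, Cd4 held 167, 243, 315 and 246 in aged Dusp5 Tprog, Ttran, Tterm and Ttad and 219, 436, 430 and 349 with OTC. The part of this list was not tested. Over the aged states 10 member peaks were higher and 23 lower than in OTC, against 4.35% and 7.87% of all peaks (12.2% in all), and after quantile normalization 9 were higher and 13 lower. Of all peaks, that normalization called 2166 higher and 2641 lower, in place of 2344 and 4241. Over the young states 15 were higher and 6 lower, against 1.8% and 2.02% (3.82% in all). The libraries did not overlap in any state at 9 member peaks in aged and 5 in young hosts, against 2.83% and 1.58% of all peaks. Ligands accounted for 13 of the 15 young rises and for none of the young falls, and in aged hosts for 3 of the 10 rises and 10 of the 23 falls. The young count was 10 after quantile normalization, 9 without young Dusp5 Tprog library 2, 11 without young OTC Tprog library 1 and 13 without young OTC Tprog library 2. Within Ttad, 2 were higher and 4 lower (1.21% and 1.67%, 2.88% in all; 3 higher and 2 lower after quantile normalization), with no overlap of libraries at 75 member peaks (41.0% of all peaks). That count of 6 was 2 without aged OTC Ttad library 1 or 2 and 3 without aged Dusp5 Ttad library 2.

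In young hosts Tnfsf11 peak 1 rose with the Dusp5 guide. It held 609 and 615 in young Dusp5 Tprog, 534, 457 and 461 in Ttran and 294, 336 and 309 in Tterm, against 443 and 439, 323, 321 and 339, and 240.2, 237 and 254 with OTC. Each Dusp5 library was above each OTC library of its state, and the average rise was 0.46 ± 0.06 (limma adjusted p = 4.31e-08). Tnfsf10 peak 6 (chr3:27284554-27286043) rose by 0.43 ± 0.08 (0.000282), and Tnfsf4 peaks 1 and 2 by 0.24 ± 0.05 (0.00101) and 0.26 ± 0.06 (0.00777). Tnfsf18, the ligand of GITR, rose at peak 2 (0.55, 0.0353), which was lost under quantile normalization (0.0771) and without 10 single libraries, among them young Dusp5 Tprog libraries 1 (0.0516) and 2 (0.106).

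In aged hosts the same guide lowered Tnfsf11 peak 3 by 0.41 ± 0.07 (limma adjusted p = 1.92e-05), with 425 to 697 against 617 to 787 normalised reads, and Tnfsf4 peak 2 by 0.30 ± 0.06 (0.000262). Tnfrsf1b fell at peak 6 (chr4:145243328-145244556) by 0.46 ± 0.07 (3.82e-07; 309.9 to 478 against 447 to 635) and at peak 1 by 0.25 ± 0.03 (9.48e-09). The start of Tnfrsf9 (peak 2) fell by 0.23 ± 0.05 (0.000904), Tnfrsf18 peak 1 by 0.24 ± 0.04 (1.1e-06) and Fas peak 3 by 0.47 ± 0.10 (0.000313), and Tnfrsf9 peak 1 by 0.19 (9.96e-05; 0.275 under quantile normalization). The largest fall by the naming rule, Tnfsf4 peak 6 (-0.71, 0.018), was lost without aged Dusp5 Tprog library 2 (0.0649) or aged OTC Tprog library 1 (0.0612). Tnfsf18 peak 1 (chr1:161479672-161480391) rose by 0.45 ± 0.10 (0.00131), with 197 to 256 in aged Dusp5 and 120 to 219.6 in aged OTC libraries, and Tnfrsf14 peak 2 by 0.30 ± 0.07 (0.000699). In Ttad alone Tnfsf18 peak 1 rose by 0.77 (0.0235), which a fit of the compared groups alone (0.161) and each of the 4 leave-outs (0.0693 to 0.142) did not keep.

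**Figure D5:**
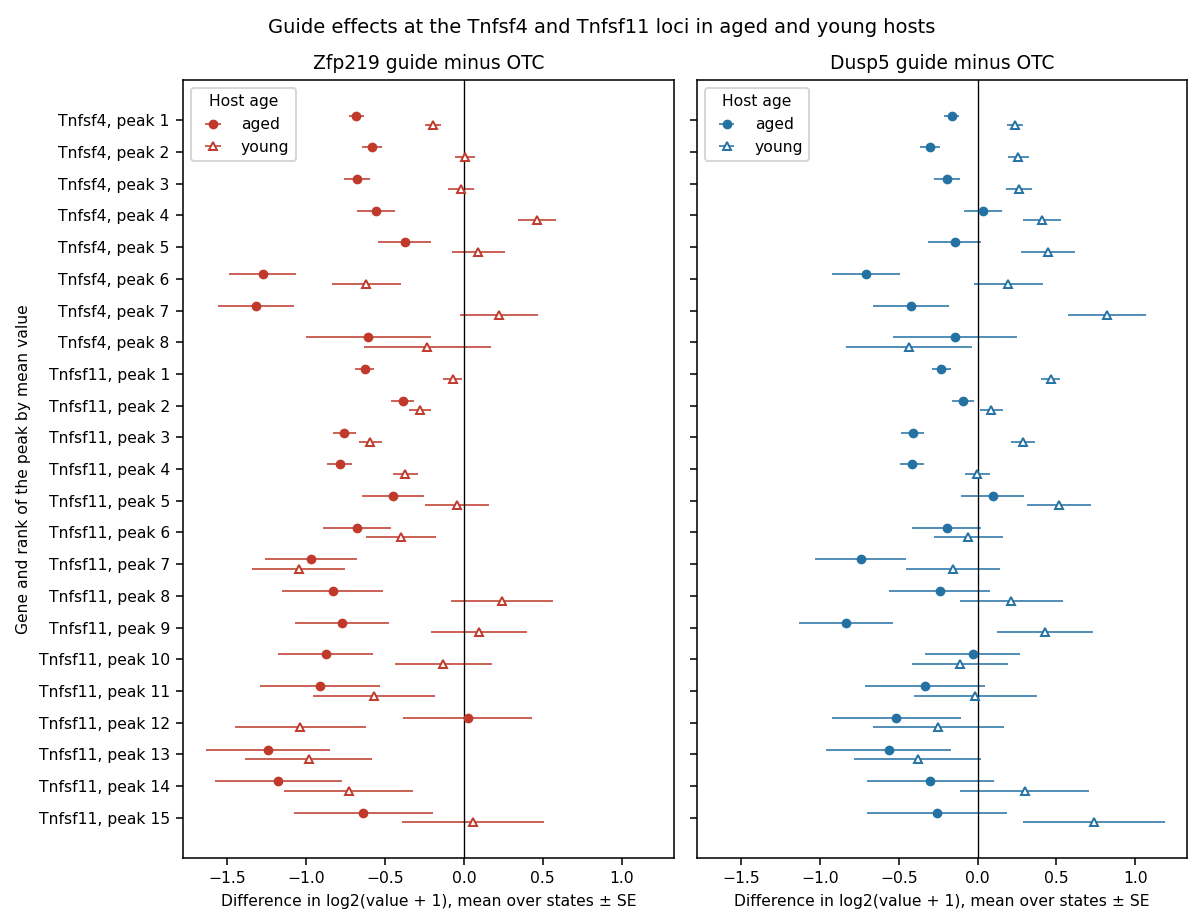
Difference of each guide from OTC, as log2 fold change of value + 1 with its SE (bars), at Tnfsf4 peaks 1 to 8 and Tnfsf11 peaks 1 to 15; filled points are means over the aged and open points over the young states. With the Zfp219 guide every aged point except that of Tnfsf11 peak 12 lies below 0, and with the Dusp5 guide the young point of Tnfsf11 peak 1 lies above 0 and its aged point below it.

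The design also allows a test of whether a guide acts differently in the 2 ages, over Tprog, Ttran and Tterm. For Zfp219, 8 member peaks had a higher and 14 a lower effect in aged than in young hosts (4.09% and 5.01% of all peaks, 9.11% in all), and for Dusp5 4 and 9 (1.27% and 2.73%, 4% in all). Both guides differed between ages at OX40 ligand and RANKL, in tests that share their OTC libraries. At Tnfsf4 peak 1 the aged effect was lower than the young by 0.48 ± 0.08 for Zfp219 (limma adjusted p = 2.1e-06) and by 0.39 ± 0.08 for Dusp5 (0.000252), and at Tnfsf11 peak 1 by 0.55 ± 0.09 (7.69e-06) and 0.71 ± 0.09 (3.29e-08). At Tnfsf4 peak 4 the Zfp219 guide went opposite ways. It held 257 and 252 against 291 and 353 in aged Tprog and 61.2 and 91.4 against 163 and 126 in aged Ttran, a fall of 0.56 ± 0.12 over all aged states (0.000165). In young hosts it held 349.9 and 445 against 337 and 298 in Tprog and 55.8, 85.3 and 76.3 against 42.3, 34.6 and 49.5 in Tterm, a rise of 0.46 (0.00871; 0.0615 without young Zfp219 Tprog library 2), and the 2 effects differed by -1.09 ± 0.19 (1.32e-05).

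At Lta peak 1 the Zfp219 effect was higher in aged than in young hosts. Summed over its 2 peaks, Lta held 1023, 954, 1060 and 988 in aged OTC Tprog, Ttran, Tterm and Ttad. With the Zfp219 guide these sums were 970, 1157, 1089 and 1037. In young Tprog, Ttran and Tterm they were 1192, 1185 and 1041 with OTC and 1149, 965 and 895 with the guide. In Ttran, Lta peak 1 went from 523 and 438 with OTC to 687 and 635 with the Zfp219 guide in aged hosts, and from 698, 636 and 631 to 506, 474 and 440.1 in young hosts. Over the states it fell by 0.27 ± 0.06 in young hosts (limma adjusted p = 0.00133), and the aged rise of 0.18 (0.0168) was lost without aged OTC Tprog library 1 (0.0527), Ttad library 1 (0.0887) or Ttran library 2 (0.0709) or aged Zfp219 Tterm library 2 (0.0718). The 2 effects differed by 0.45 ± 0.09 (0.000313). Tnfrsf14 peak 2 had a higher effect in aged hosts for both guides, by 0.48 ± 0.10 (0.00047) and 0.56 ± 0.10 (8.28e-05), and Tnfrsf13b peak 4 for Dusp5, by 1.68 ± 0.31 (0.000123). The contrast of Tprog and Tterm in OTC libraries differed between ages at 9 member peaks, all lower in aged hosts (0.512% of all peaks higher and 1.81% lower, 2.32% in all). That count was 2 after quantile normalization and 1 to 5 without 8 of the 9 libraries in turn (1 without aged OTC Tterm library 2, 2 without aged OTC Tprog library 1).

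The genes that carry the signal of these receptors to NF-kB and to caspases (Traf1 to Traf6, Tradd, Fadd, Ripk1, Birc2, Birc3, Casp8, Cflar, Nfkb1, Nfkb2, Rela, Relb, Rel, Nfkbia, Nfkbie, Tnfaip3, Map3k14, Ikbkb, Chuk, Ikbkg, Tank and Cyld) had 166 peaks, at 25 of these genes. Between Tprog and Tterm 16 were higher and 15 lower in aged OTC libraries (8.88% and 11.2% of all peaks), and 32 higher and 13 lower in young ones (13.9% and 12.6%), shares near those of all peaks in aged mice. With age 50 were higher and 24 lower (17.3% and 19.1% of all peaks), with a median difference of 0.07 against 0.00. With the Zfp219 guide 9 were higher and 52 lower in aged hosts (12.1% and 13.7% of all peaks; median -0.13 against 0.01) and 1 higher and 26 lower in young hosts (1.92% and 5.15%). With the Dusp5 guide 3 were higher and 25 lower in aged (4.35% and 7.87%) and 3 higher and 7 lower in young hosts (1.8% and 2.02%). The superfamily genes outside the rule (Tnf, Cd40, Cd40lg, Eda, Edar, Eda2r, Ngfr and Relt) had 20 peaks, of which 5 were higher in young Tprog (13.9% of all peaks), 1 higher and 1 lower in aged Tprog (8.88% and 11.2%), and 3 higher and 2 lower in aged hosts (17.3% and 19.1%). With so few peaks, these counts are given as a description.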

How the data were processed

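The deposited table holds 1 signal value per peak and library, which the authors made from read counts divided by a factor of the library: whole reads could be recovered for 100% of values (within 0.01 read). Per the submitters' processing notes, Bowtie2 2.2.9, Picard 2.8.0, SAMtools 1.3.1, MACS2 2.1.1, DESeq2 1.28.1 and mm10 were used, with no roles given. Row names give the coordinates, here GRCm38. Members were assigned with RefSeq gene bodies (GRCm38.p6); exons and introns were not used here. Groups came from sample titles, and A and Y in titles were read as aged and young.

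Differences were fitted with limma 3.58.1 (R 4.3.3) on log2(value + 1), all 48 libraries in 1 fit of group means, each state weighted equally in age and guide contrasts, with Benjamini-Hochberg adjustment over all 53868 peaks; a call has an adjusted p under 0.05. The script was checked on simulated data, in which 200 of 53868 peaks were changed 2-fold in aged Zfp219 libraries. Over the aged states limma recovered 100% of them, with 16 false calls. Within aged Ttad it recovered 80.5%, with 26 false calls. Between aged OTC Tprog and Tterm, where nothing was changed, it made 0 calls. edgeR 4.0.16 on the recovered reads called 11511 peaks between aged OTC Tprog and Tterm, against 10806 by limma. Further settings tried were quantile normalization, a pseudocount of 8, a table without its weakest 25% of peaks, the compared groups alone, a replicate block and each library left out. State and age contrasts within Zfp219 and Dusp5 libraries were added after seeing the data.

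The members and lists were chosen with earlier results of these data known. Named peaks are the strongest 2 of Tnfrsf9 and Tnfrsf18, the strongest of 18 further genes with a peak, and, in each comparison, up to 3 rises and 3 falls that were called, did not overlap and averaged at least 20 normalised reads; other named peaks, among them those shared between library sets, were chosen after their values were seen. A gene of the marker lists for other cells is not reported here.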

Additional observations from a re-analysis of the deposited data

Results flagged for a closer look

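Effects that differed between aged and young hosts by a test of the difference itself are gathered here, each as the aged minus the young effect on the scale of log2(value + 1), with Benjamini-Hochberg adjusted p-values from limma. The same 2 ligand genes, Tnfsf4 and Tnfsf11, stood in all 3 comparisons. All 3 use the aged and young OTC libraries of Tprog and Tterm, so they are not independent. The Zfp219 effect differed at 22 member peaks. At Tnfsf4 the difference was -0.48 for peak 1, -0.53 for peak 2 (adjusted p = 5.27e-05), -1.45 for peak 7 (0.00558) and -1.09 for peak 4, and at Tnfsf11 it was -0.55 for peak 1. At receptors it was -1.01 for Tnfrsf19 peak 4 (0.00672), -0.46 for Fas peak 3 (0.0397) and -0.18 for Tnfrsf18 peak 1 (0.0401), whose aged and young effects were -0.33 and -0.19 over their own states. It was above 0 at Lta peak 1 (0.45), Tnfrsf1a peak 1 (0.43, 0.0171), Tnfrsf26 peak 1 (0.36, 0.00768), Tnfrsf1b peak 4 (0.34, 0.00773) and Tnfrsf12a peak 1 (0.32, 0.0134). The difference at Tnfrsf18 peak 1 was 0.0549 in adjusted p after quantile normalization and was lost without 12 single libraries.

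The Dusp5 effect differed at 13 member peaks. At Tnfsf4 the difference was -0.39 for peak 1, -0.55 for peak 2 (adjusted p = 5.33e-05) and -1.44 for peak 7 (0.0113), at Tnfsf11 it was -0.71 for peak 1 and -0.77 for peak 3, and at Tnfsf10 peak 6 it was -0.41 (0.0398). At Tnfrsf13b peak 4 it was 1.68, the largest of these in size.

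The contrast of Tprog and Tterm differed at 9 member peaks, among them Tnfsf4 peaks 1 (-0.45, adjusted p = 0.0483) and 4 (-1.26, 0.017), Tnfsf11 peak 3 (-0.68, 0.0464), Tnfrsf1b peak 1 (-0.41, 0.00243) and Tnfsf8 peak 1 (-0.54, 0.0144). After quantile normalization the adjusted p was 0.237 for Tnfsf4 peak 1, 0.17 for Tnfsf11 peak 3, 0.403 for Tnfrsf1b peak 1 and 0.0501 for Tnfsf8 peak 1. Leaving out aged OTC Tterm library 2 also ended the call of most of these peaks.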

How the results depend on the processing

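Of 288 counts of called member peaks under an alternative setting or in the libraries of another guide, 245 were within 1.5 times the main count. Those beyond were, with the compared groups alone, aged Ttran against Tterm (6 in place of 12), Ttad against Tprog (14 in place of 9) and Dusp5 in Ttad (0 in place of 6, with 30 at an unadjusted p under 0.05 by limma; 3 by edgeR); and, after quantile normalization, young Dusp5 (10 in place of 21) and the age difference of Tprog against Tterm (2 in place of 9). Over all peaks and in the same order, the compared groups alone called 625 in place of 1735, 2607 in place of 3531 and 169 in place of 1552. Quantile normalization called 1535 of all peaks in place of 2057 and 650 in place of 1250. Member counts from libraries of another guide were also beyond 1.5 times the main count, and these differ in the cells and not in the processing. In Zfp219 libraries they were 2 and 9 for aged and young Ttran against Tterm, against 12 and 34 in OTC libraries. Ttad against Tterm gave 3 in Zfp219 and 28 in OTC libraries, where 1.75% and 7.28% of all peaks were called. Ttad against Tprog gave 26 in Zfp219 and 16 in Dusp5 libraries (7.65% and 7.33% of all peaks), against 9 in OTC libraries (6.55%). Leaving out 1 library gave 35 to 42 calls for aged and 51 to 69 for young Tprog against Tterm, 5 to 7 and 24 to 29 for Ttran against Tterm, 12 to 17 for Ttad against Tterm, 4 to 5 for Ttad against Tprog, 78 to 89 for age, 56 to 65 and 19 to 28 for aged and young Zfp219, 25 to 31 and 9 to 18 for aged and young Dusp5, 11 to 19 and 2 to 5 for Zfp219 and Dusp5 in Ttad, and 19 to 24, 9 to 16 and 1 to 7 for the 3 age differences. The cause of these changes was not tested. Of 402 calls of named peaks, 188 were lost in at least 1 alternative and none reversed; quantile normalization ended 63, the compared groups alone 30, edgeR 10, the replicate block 8 and a pseudocount of 8 ended 3. Replicate numbers did not pair the samples (correlations of deviations from -0.018 to 0.017), and the replicate block gave 56 and 75 calls for aged and young Tprog against Tterm, 77 for age, 65 for aged and 26 for young Zfp219, and 33 and 19 for Dusp5. Groups of 2 libraries and values of a few reads limit what weak peaks can show.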
